A study of Mus musculus with 12 samples.

Results

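The genes described here are 10 members of the Notch signalling pathway and its surroundings, out of 21872 gene symbols measured: the receptors Notch1, Notch2 and Notch3, the ligands Dll1 and Jag1, the target genes Hes1, Hes5 and Hey1, the feedback inhibitor Nrarp, and the transcription factor Sox21. They were taken by symbol, and were selected on their measured counts in 6-OHDA and control prefrontal cortex, so the change in prefrontal cortex is given for them as a description, with no test. RNA of C57BL/6J mice at postnatal day 24 came from 2 regions, prefrontal cortex (PFC) and striatum (STR), in 4 groups of 3 libraries: 6-OHDA mice in PFC, control mice in PFC, 6-OHDA mice in STR and control mice in STR. The 6-OHDA mice carry the label ADHD, the model of attention-deficit/hyperactivity disorder in which 6-hydroxydopamine, a toxin taken up by dopamine neurons, removes these cells. The sources used here do not give the dose, route or day of the toxin, nor what the controls received. No label ties a library to an animal, so p-values measure only the spread between these libraries, which may be technical.

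Notch signalling passes between touching cells. A ligand such as Dll1 or Jag1 on the surface of 1 cell binds a Notch receptor on its neighbour, the receptor is cut by ADAM proteases and gamma-secretase, and its freed intracellular part enters the nucleus, where it joins the DNA-binding protein RBPJ and Mastermind coactivators and switches on Hes and Hey genes. Hes and Hey proteins are repressors that hold neural progenitors and glia back from neuronal fate. Nrarp is itself induced by Notch and shortens the life of the active complex, so that it works as a brake. Sox21 belongs to the SoxB group, whose other members Sox1 and Sox2 keep progenitors undifferentiated while Sox21 acts mainly as a repressor. In the brain after birth, much of the RNA of these genes lies in astrocytes, in remaining progenitors and, for Notch1, Hey1 and Notch3, also in cells of the vessel wall.

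The stretches of DNA ahead of 3 of these genes are shown, the target Hes5, the feedback inhibitor Nrarp and Sox21, which differ in the letters they carry there. They are the 250 bases before the RefSeq start on GRCm38.p6, read 5′ to 3′ along the gene's strand. Capitals mark TGGGAA, the core letters of the RBPJ motif, or its reverse complement TTCCCA, and CACGTG, an E box of the kind to which Hes and Hey proteins can bind. For Hes5 (plus strand, chr4:154960673-154960922), Nrarp (plus strand, chr2:25180508-25180757) and Sox21 (minus strand, chr14:118237031-118237280) they read as follows.
Hes5: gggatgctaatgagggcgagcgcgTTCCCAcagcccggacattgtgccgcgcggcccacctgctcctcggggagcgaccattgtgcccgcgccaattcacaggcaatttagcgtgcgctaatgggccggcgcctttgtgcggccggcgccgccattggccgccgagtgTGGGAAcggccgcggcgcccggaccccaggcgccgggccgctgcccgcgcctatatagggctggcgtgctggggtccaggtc
Nrarp: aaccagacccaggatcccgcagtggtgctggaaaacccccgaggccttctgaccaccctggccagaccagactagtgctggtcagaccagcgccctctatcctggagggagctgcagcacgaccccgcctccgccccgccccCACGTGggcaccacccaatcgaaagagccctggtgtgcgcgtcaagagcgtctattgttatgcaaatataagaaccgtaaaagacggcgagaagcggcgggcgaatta
Sox21: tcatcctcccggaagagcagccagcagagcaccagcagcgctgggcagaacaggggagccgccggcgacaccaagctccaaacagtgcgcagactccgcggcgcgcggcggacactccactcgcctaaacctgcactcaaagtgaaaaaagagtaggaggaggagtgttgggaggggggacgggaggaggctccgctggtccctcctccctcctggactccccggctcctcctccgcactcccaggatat
The Hes5 stretch held TGGGAA at 2 places, 226 bases before the start on the reverse strand and 82 bases before it on the forward strand. The Nrarp stretch held CACGTG at 1 place, 108 bases before the start, and no TGGGAA. The Sox21 stretch held neither. Among 32851 stretches of the same length from all RefSeq gene starts, 21.6% held TGGGAA on either strand, 2.77% held it at 2 or more places and 6.02% held CACGTG. RefSeq stretches were matched for 8 of the 10 genes, and not for Hes1 and Hey1. Those of Notch1, Notch2, Notch3, Dll1 and Jag1 held neither motif. CACGTG is its own reverse complement and does not overlap TGGGAA. A match describes letters and no bound site.

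All 10 genes were above the filter on low counts in every comparison. Total counts lay between 15078631 and 20925452 per library, so that a floor of 3 counts is at most 0.199 CPM, a unit in which every library has the same total, and lies far under the lowest value of any of the 10, 2.34 CPM for Hes1 in 1 striatal library. Levels are TMM-scaled CPM, which correct for library composition. Markers fitted the labelled regions, with 1 striatal library apart. The 10 genes of cortical excitatory neurons summed to 2719 to 2858 CPM in 6-OHDA PFC and 2763 to 2979 CPM in control PFC. In 6-OHDA STR they summed to 223 to 443 CPM. In control STR they summed to 183, 1014 and 246 CPM, so library 2 carried more RNA of cortical markers than the other striatal libraries. Striatal libraries were less alike. The 10 markers of striatal projection neurons summed to 9154, 3702 and 5300 CPM in 6-OHDA STR and to 2498, 1695 and 2750 CPM in control STR, against 326 to 515 CPM in 6-OHDA PFC and 391 to 876 CPM in control PFC, and 10 ependymal and choroid plexus genes summed to 2135 CPM in control STR library 2 against 56.4 to 110 CPM in the other striatal libraries of both groups. The biological coefficient of variation was 14.9% in STR against 5.78% in PFC. Results in STR are therefore also given without 6-OHDA STR library 1 and control STR library 2, a choice made after seeing the data.

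**Figure D1:**
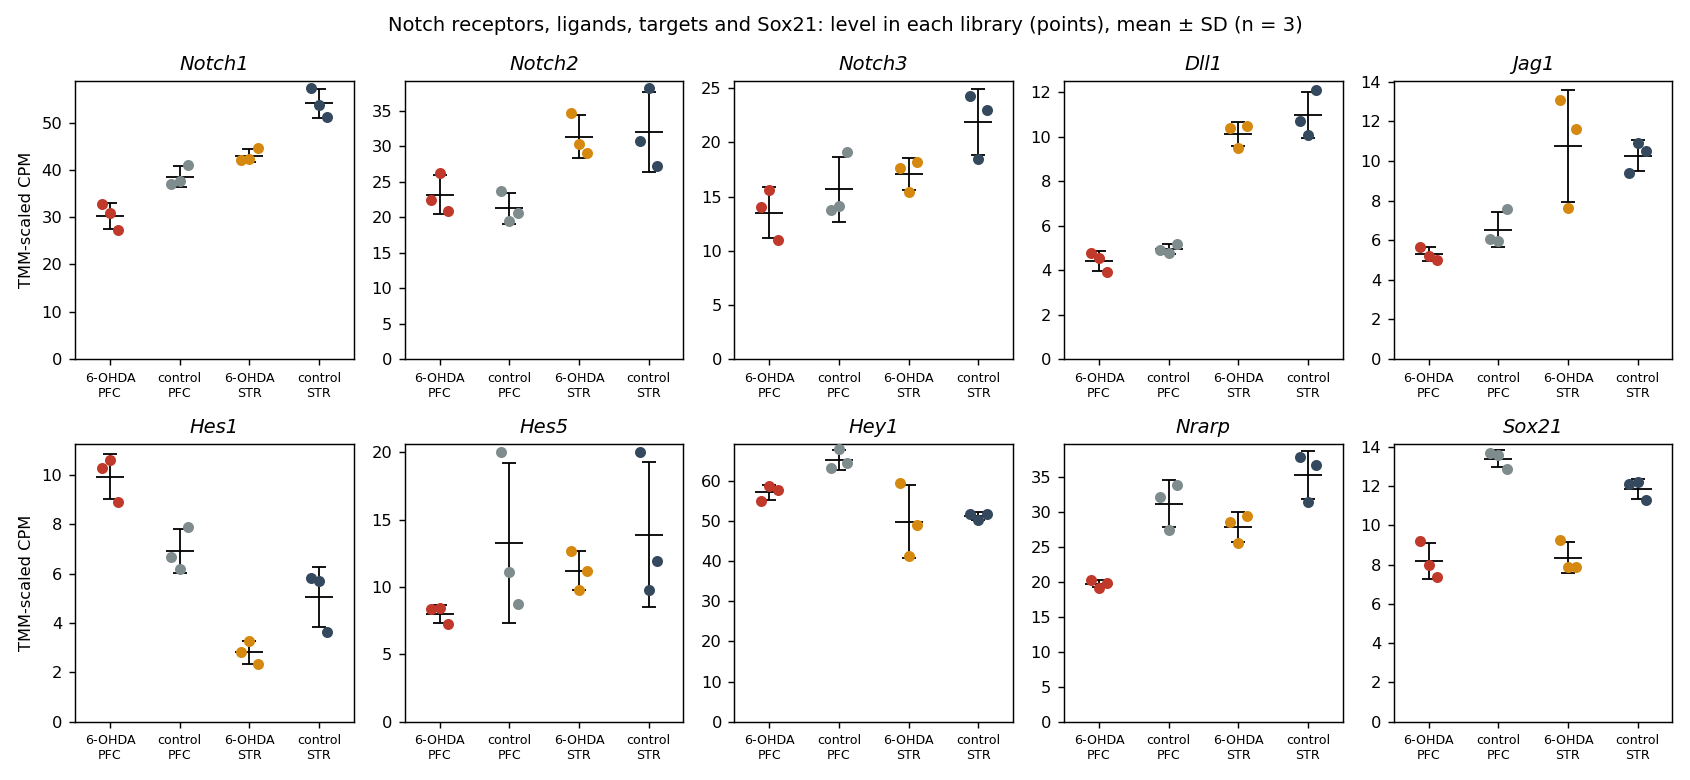
Level of each gene in every library (points; y axis, TMM-scaled CPM, from 0) in 6-OHDA and control mice of each region, with the mean and SD of 3 libraries. Nrarp and Sox21 points lie lower in 6-OHDA than in control mice in both regions, Hes1 points lie higher in 6-OHDA PFC and lower in 6-OHDA STR than in their controls, and 1 control library of each region carries a Hes5 value near 20 CPM.

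Per kilobase of exon, Hey1, Nrarp and Hes5 stood above receptors and ligands in all 4 groups, while the place of Hes1 varied. In 6-OHDA PFC the order began with Hey1 at 17.5 ± 0.584 CPM per kb, Nrarp at 7.66 ± 0.222, Hes5 at 5.89 ± 0.484 and Hes1 at 4.88 ± 0.45 (SD, n = 3), and these 4 did not overlap with their neighbours in the order. In control PFC it began with Hey1 at 19.9 ± 0.772 CPM per kb, Nrarp at 12.1 ± 1.29 and Hes5 at 9.73 ± 4.34, the last 2 overlapping. Hey1, Nrarp and Hes5 were also the 3 highest in 6-OHDA STR, at 15.3 ± 2.79, 10.8 ± 0.813 and 8.23 ± 1.06 CPM per kb, and in control STR, at 15.7 ± 0.283, 13.7 ± 1.35 and 10.2 ± 3.96 CPM per kb. The lowest place was held by Jag1 in 6-OHDA PFC (0.909 ± 0.0582), control PFC (1.12 ± 0.153) and control STR (1.76 ± 0.136), and by Hes1 in 6-OHDA STR (1.38 ± 0.228 CPM per kb). Hes1 thus stood at rank 4 of 10 in 6-OHDA PFC and 5 in control PFC. In 6-OHDA STR it was last, and its range overlapped with that of Jag1, the next gene up. In control STR it was at rank 9 (2.48 ± 0.6 CPM per kb). Its mean there was below those of the 3 receptors and Dll1, but its range overlapped with those of Dll1, Notch2 and Notch3. Exon lengths are the union of all exons of a gene in GENCODE M21, which can overstate the length of a typical transcript. Notch1 was the longest, at 14.2 kb.

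Set against control PFC, 6-OHDA PFC had lower levels of the receptor Notch1, the ligand Jag1, the targets Hes5 and Hey1, Nrarp and Sox21, and a higher level of Hes1, each without overlap between groups. Notch2, Notch3 and Dll1 overlapped. Of the 10 genes, 8 had a log2 fold change below 0 and the median was -0.26, against -0.005 over all 14018 genes tested in PFC. In 7 of 10 the libraries of the groups did not overlap, 1 with 6-OHDA above and 6 with 6-OHDA below; over all genes, 25.3% did not overlap, 14.2% with 6-OHDA above and 11.1% with 6-OHDA below. These counts describe genes chosen with the values in view.

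Among the receptors, Notch1 (chr2:26457903-26516663, minus strand, GRCm38), the main receptor of neural progenitors, had 32.8, 30.8 and 27.3 CPM in 6-OHDA PFC and 37.0, 37.6 and 41.1 CPM in control PFC. All 3 6-OHDA libraries lay below the lowest control, and the log2 fold change was -0.36 (SE 0.08). Notch2, also expressed by glia, had 22.4, 26.2 and 20.9 CPM in 6-OHDA PFC against 23.7, 19.5 and 20.6 CPM in control PFC, with overlapping groups and a log2 fold change of 0.11 (SE 0.1). Notch3, the receptor of vascular smooth muscle and pericytes, had 14.03, 15.6 and 10.96 CPM in 6-OHDA PFC against 13.8, 14.1 and 19.1 CPM in control PFC. Its groups overlapped, and its log2 fold change of -0.22 (SE 0.15) became -0.05 without control PFC library 3, the highest of the 6.

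Of the ligands, Dll1, which newborn neurons and progenitors present to their neighbours, had 4.78, 4.53 and 3.93 CPM in 6-OHDA PFC and 4.89, 4.75 and 5.18 CPM in control PFC. The lower values of the 6-OHDA libraries overlapped with the controls, and the log2 fold change was -0.17 (SE 0.15). Jag1, a ligand found on endothelium and astrocytes, had 5.68, 5.19 and 5.02 CPM in 6-OHDA PFC and 6.08, 5.97 and 7.56 CPM in control PFC. Here the groups did not overlap, by a margin of less than 1 CPM, and the log2 fold change was -0.31 (SE 0.14), or -0.2 without control PFC library 3, the highest value.

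The 3 target genes of the HES and HEY family did not move together in PFC. Hes1 had 10.3, 10.6 and 8.9 CPM in 6-OHDA PFC and 6.67, 6.17 and 7.9 CPM in control PFC, from 147 to 196 counts per 6-OHDA library and 96 to 135 per control library. Every 6-OHDA library was above every control, and the log2 fold change was 0.52 (SE 0.13). Hes5, the target most tied to astrocytes and radial glia, had 8.36, 8.45 and 7.26 CPM in 6-OHDA PFC and 19.96, 11.1 and 8.72 CPM in control PFC. All 3 6-OHDA libraries were below the lowest control, but 1 control library stood far above the rest: the log2 fold change of -0.76 (SE 0.23) became -0.31 without it. Hey1, expressed by endothelium as well as by neural cells, had 55.1, 58.8 and 57.7 CPM in 6-OHDA PFC and 63.1, 67.9 and 64.4 CPM in control PFC, a gap with no overlap and a log2 fold change of -0.2 (SE 0.06).

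Nrarp and Sox21 were both lower in 6-OHDA PFC. Nrarp (chr2:25180758-25183339, plus strand) had 20.3, 19.2 and 19.8 CPM in 6-OHDA PFC and 32.2, 27.5 and 33.9 CPM in control PFC, with a log2 fold change of -0.67 (SE 0.09). All 6-OHDA libraries lay below all controls, and close to each other. Sox21 (chr14:118233232-118237030, minus strand) had 9.2, 7.97 and 7.38 CPM in 6-OHDA PFC and 13.7, 13.6 and 12.9 CPM in control PFC, with no overlap and a log2 fold change of -0.72 (SE 0.11). Their log2 fold changes stayed between -0.75 and -0.61 for Nrarp and between -0.82 and -0.65 for Sox21 over 15 other settings, against between -0.44 and -0.29 for Notch1, 0.44 and 0.61 for Hes1, and -0.99 and -0.31 for Hes5. Nrarp and Notch1 lie on the same chromosome, 1.27 Mb apart.

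**Figure D2:**
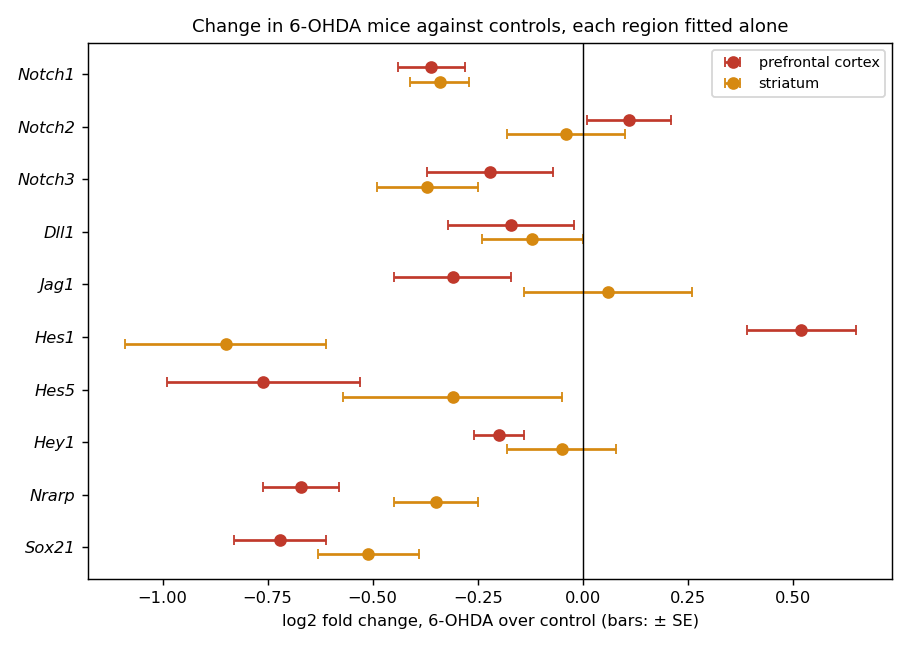
Log2 fold change of 6-OHDA over control mice (x axis) with its SE (bars) for each gene in PFC and STR, each region fitted alone. Notch1, Nrarp and Sox21 lie left of 0 in both regions, and Hes1 lies at 0.52 in PFC and at -0.85 in STR.

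In striatum, the question is whether the genes that differed in PFC also differ there, in libraries not known to have entered their choice. No label says whether STR and PFC came from the same mice, so STR is not shown to be an independent repeat. By edgeR's quasi-likelihood test, adjusted over all 14288 genes, 0 of the 10 passed, and 4 genes did in all, 0.028% of those tested. At an unadjusted p of 0.05, 5 of the 10 passed (Notch1, Notch3, Hes1, Nrarp and Sox21), against 17.3% of all genes. The median log2 fold change was -0.32, against -0.004 over all genes, and 5 genes had every 6-OHDA library below every control (12.7% of all genes). Without an overlap and lower in both regions were 3 of 10, Notch1, Nrarp and Sox21, against 3.05% of 14545 genes; the PFC values entered the choice of the genes. The 6-OHDA libraries of STR also differed from their controls in markers of striatal projection neurons, which were higher, and of ependymal and choroid plexus cells, which were lower, both without overlap.

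Sox21 had 9.27, 7.88 and 7.9 CPM in 6-OHDA STR and 12.1, 12.2 and 11.3 CPM in control STR. All 6-OHDA libraries lay below all controls, at levels close to those of the same groups in PFC. The log2 fold change was -0.51 (SE 0.12, adjusted p = 0.169 by edgeR's quasi-likelihood test), and -0.57 (adjusted p = 0.123) without the striatal libraries that stood apart. It passed the threshold with all 12 libraries in 1 edgeR fit (adjusted p = 0.0238), where 7.15% of all genes did, and with DESeq2 (adjusted p = 0.0442), where 3.7% did. The 12-library fit shares 1 biological coefficient of variation between the regions, 11.3% against 14.9% in STR alone. That is a smaller spread than STR alone shows, which limits each pass in STR by that fit.

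Nrarp had 28.6, 25.5 and 29.5 CPM in 6-OHDA STR and 37.9, 31.4 and 36.7 CPM in control STR. The groups did not overlap, and the log2 fold change was -0.35 (SE 0.1, adjusted p = 0.187 by edgeR's quasi-likelihood test), or -0.44 (adjusted p = 0.101) without those libraries; it passed in 0 of 16 other settings. Notch1 had 42.1, 42.3 and 44.7 CPM in 6-OHDA STR and 57.3, 53.8 and 51.2 CPM in control STR, again without overlap. Its log2 fold change of -0.34 (SE 0.07, adjusted p = 0.16 by edgeR's quasi-likelihood test) was close to the PFC value of -0.36, and it passed in the 12-library fit (adjusted p = 0.0309) and with DESeq2 (adjusted p = 0.0302). Without 6-OHDA STR library 1 and control STR library 2 it was -0.32.

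Hes1 ran the other way from its PFC values. It had 2.83, 3.27 and 2.34 CPM in 6-OHDA STR, from 40 to 61 counts, and 5.83, 5.7 and 3.65 CPM in control STR, from 72 to 100 counts. The 6-OHDA libraries were below all controls, of which library 3 was nearest to them. The log2 fold change was -0.85 (SE 0.24, adjusted p = 0.192 by edgeR's quasi-likelihood test), and it lay between -1.04 and -0.72 over 16 other settings, of which 1, the 12-library fit, passed (adjusted p = 0.0332). The difference of the 2 changes, STR minus PFC, was -1.36 (SE 0.27) for Hes1, between -0.16 and 0.43 for the other 9; these values are descriptions, since the PFC values entered the choice. Of all 14545 genes, 0.763% were, like Hes1, above the controls in PFC and below them in STR without overlap. Of all genes, 0.0825% passed the test of the difference, which is not given for the 10.

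Notch3 had 17.6, 15.4 and 18.2 CPM in 6-OHDA STR and 24.3, 18.5 and 23.0 CPM in control STR, with a log2 fold change at -0.37 (SE 0.12, adjusted p = 0.221 by edgeR's quasi-likelihood test). Its highest 6-OHDA library lay just under its lowest control. Hes5 had 12.7, 9.76 and 11.2 CPM in 6-OHDA STR and 20.01, 9.78 and 11.9 CPM in control STR, with overlapping groups. Control library 1 was again the high one, at 343 counts in STR and 404 in PFC, and the log2 fold change of -0.31 (SE 0.26, adjusted p = 0.543 by edgeR's quasi-likelihood test) was 0.03 without it. No label says whether the libraries numbered 1 come from the same mouse. For Hey1, Notch2, Dll1 and Jag1 the groups overlapped in STR, with log2 fold changes between -0.12 and 0.06 and adjusted p between 0.594 and 0.901 by the same test. Relative to the mean, Jag1 had the widest spread of these in 6-OHDA STR (SD 26.5% of the mean). It had 13.1, 7.61 and 11.6 CPM in 6-OHDA STR against 9.39, 10.9 and 10.5 CPM in control STR.

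In both 6-OHDA and control mice, striatum carried more RNA of Notch1, Notch2, Dll1 and Jag1 than PFC. In 6-OHDA mice, 6 of the 10 genes differed between the regions by edgeR's quasi-likelihood test on all 12 libraries, 5 higher in STR and 1 lower, at a background of 48.4% of genes called. In control mice, whose libraries are all different, again 6 differed, 5 higher and 1 lower, at a background of 42.9%. The counts of called genes were thus not far above the background. Dll1 and Notch2 were called in both kinds of mice. The share of all genes called in both was not counted. Both contrasts use PFC libraries on which the genes were selected. Choosing a gene as low in 6-OHDA PFC tends to raise STR over PFC in 6-OHDA mice and to lower it in control mice. The reverse holds for Hes1. The targets, Nrarp and Sox21 are therefore given below without a test. Notch1 and Jag1 were also lower in 6-OHDA PFC without overlap, and are likewise given below without a test. The counts above still include Notch1 and Jag1 in both kinds of mice, Hes1 and Nrarp in 6-OHDA mice and Hey1 in control mice.

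Of the 5 receptors and ligands among the 10 genes, Dll1 differed most between regions. The p-values of Dll1, Notch2 and Notch3 below use PFC libraries on which the 10 genes were selected, so they are no independent test. It had 10.4, 9.49 and 10.5 CPM in 6-OHDA STR against 4.78, 4.53 and 3.93 CPM in 6-OHDA PFC, and 10.7, 10.1 and 12.1 CPM in control STR against 4.89, 4.75 and 5.18 CPM in control PFC. The log2 fold change was 1.19 (SE 0.12, adjusted p = 7.91e-06) in 6-OHDA mice and 1.15 (SE 0.12, adjusted p = 1.28e-05) in control mice by edgeR's quasi-likelihood test, and no library of STR overlapped with PFC. Jag1 was higher in STR by 1.02 (SE 0.18) in 6-OHDA mice and by 0.66 (SE 0.18) in control mice on the log2 scale. The receptor Notch1 was higher in STR by 0.5 (SE 0.08) in 6-OHDA mice and by 0.49 (SE 0.08) in control mice. Notch2 was higher by 0.43 (SE 0.13, adjusted p = 0.0167) in 6-OHDA mice and by 0.59 (SE 0.13, adjusted p = 0.00353) in control mice. Its call in 6-OHDA mice was lost without 6-OHDA PFC library 1 (adjusted p = 0.0552), 6-OHDA PFC library 3 (0.07) or 6-OHDA STR library 1 (0.0524). Notch3 passed in control mice (0.49, SE 0.16, adjusted p = 0.0251) and not in 6-OHDA mice (0.33, SE 0.16, adjusted p = 0.106); the difference of the 2 values was -0.16 (SE 0.22). Its call in control mice was lost without control PFC library 1 (adjusted p = 0.101) or 2 (0.0961) and without control STR library 1 (0.0913) or 3 (0.0724).

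**Figure D3:**
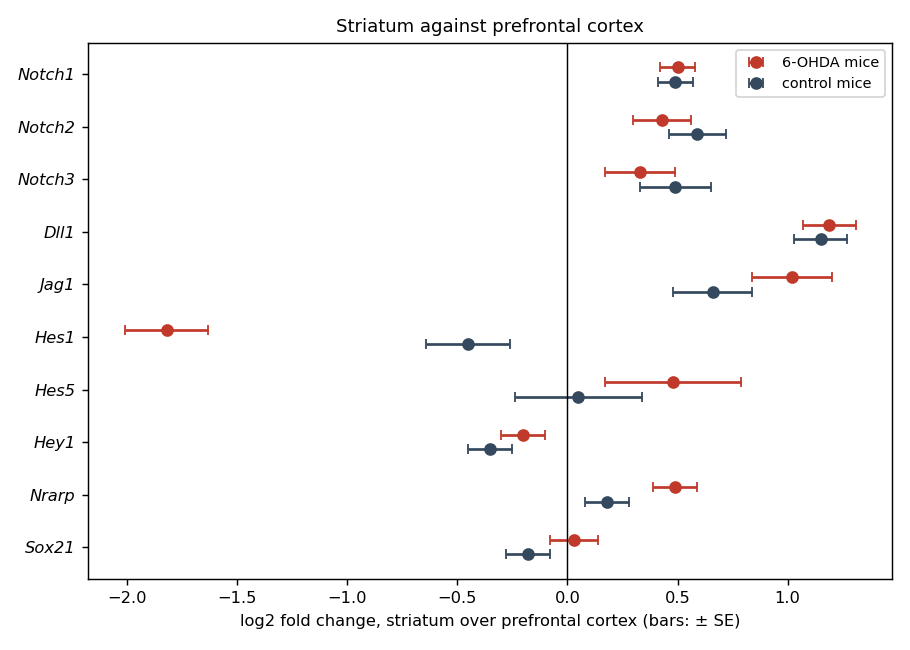
Log2 fold change of STR over PFC (x axis) with its SE (bars) for each gene in 6-OHDA and control mice, from 1 fit of all 12 libraries. Receptors and ligands lie right of 0 in both kinds of mice, Hey1 lies left of it in both, and Hes1 lies at -1.82 in 6-OHDA and -0.45 in control mice.

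The target genes did not follow the receptors across regions. Hes1 was lower in STR than in PFC in 6-OHDA mice, with 2.34 to 3.27 CPM in 6-OHDA STR and 8.9 to 10.6 CPM in 6-OHDA PFC and a log2 fold change of -1.82 (SE 0.19). In control mice it had 3.65 to 5.83 CPM in control STR and 6.17 to 7.9 CPM in control PFC, and -0.45 (SE 0.19). Over 21 other settings these values lay between -1.94 and -1.7 in 6-OHDA mice and between -0.57 and -0.26 in control mice. Hey1 had log2 fold changes of -0.2 (SE 0.1) in 6-OHDA mice, between -0.34 without 6-OHDA STR library 1 and -0.08 without 6-OHDA STR library 2, and of -0.35 (SE 0.1) in control mice. Hes5 had 0.48 (SE 0.31) in 6-OHDA mice and 0.05 (SE 0.29) in control mice, values close to their errors. Nrarp had 0.49 (SE 0.1) in 6-OHDA mice and 0.18 (SE 0.1) in control mice, the second between 0.1 and 0.26 over other settings. Sox21 was near equal in the regions, at 0.03 (SE 0.11) in 6-OHDA and -0.18 (SE 0.1) in control mice.

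The rest of the pathway was read in 53 further genes, listed with earlier results of these data known. In PFC, 51 were tested, 2 rose and 2 fell in 6-OHDA mice, at a background of 3.45% higher and 2.28% lower, and their median log2 fold change was -0.03. The target Heyl, a HEY family gene prominent in vessel-wall cells, fell to 3.1, 4.41 and 3.69 CPM in 6-OHDA PFC, against 7.41, 5.39 and 9.06 CPM in control PFC (log2 fold change -0.98, SE 0.2, adjusted p = 0.0119 by edgeR's quasi-likelihood test). The coactivator Maml3, which bridges the Notch intracellular part and RBPJ to the transcription machinery, fell to 11.1, 12.7 and 12.7 CPM in 6-OHDA PFC, against 16.3, 17.0 and 19.1 CPM in control PFC (-0.54, SE 0.1, adjusted p = 0.00864). The RBPJ corepressor Spen rose by 0.26 (SE 0.07, adjusted p = 0.0349), and the acetyltransferase Ep300, a general coactivator that Mastermind recruits, by 0.22 (SE 0.06, adjusted p = 0.0394). None of the 6 other ligands, 14 processing genes and 12 endocytosis and turnover genes was called in PFC by edgeR, with 0, 2 and 1 at an unadjusted p under 0.05. The 4 calls differed in how far they held. Of 15 other settings, Maml3 was called in 14, Heyl in 12, Spen in 8 and Ep300 in 7. Of the 4 calls, 0 were made in the 12-library fit. Between 1 and 2 were made without 6-OHDA PFC library 1, 2 or 3 or without control PFC library 1. The same held with genes in multiples of 11 kept or with GC content and length offsets.

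In STR 0 of 50 tested passed by edgeR's quasi-likelihood test, 7 at an unadjusted p under 0.05 (17.3% of all genes did), and the median was -0.02. Heyl there had 5.53, 7.99 and 9.07 CPM in 6-OHDA STR against 21, 10.4 and 19.5 CPM in control STR, without overlap (-1.18, SE 0.29, adjusted p = 0.181), and Spen had 131, 123 and 127 CPM in 6-OHDA STR against 109, 95.4 and 100 CPM in control STR (0.32, SE 0.07, adjusted p = 0.169). Maml3 overlapped between groups in STR (-0.07, SE 0.14, adjusted p = 0.821).

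Between regions, 6 of the 12 endocytosis and turnover genes were called in 6-OHDA mice and 7 in control mice, near the shares of 48.4% and 42.9% of all genes, and all of the called were lower in STR. Fbxw7, which tags the active Notch fragment for degradation, was lower in STR, at -1.38 (SE 0.1, adjusted p = 1.12e-06) in 6-OHDA mice and -1.6 (SE 0.1, adjusted p = 5.45e-07) in control mice on the log2 scale by edgeR's quasi-likelihood test. Numb, which inhibits Notch by steering its traffic, was lower by -0.77 (SE 0.08, adjusted p = 1.06e-05) in 6-OHDA mice and -1.02 (SE 0.08, adjusted p = 1.9e-06) in control mice. Lfng, a glycosyltransferase that tunes which ligands a receptor answers, was higher in STR by 0.49 (SE 0.13, adjusted p = 0.00883) in 6-OHDA mice and 0.73 (SE 0.13, adjusted p = 0.00082) in control mice. Dlk1, a ligand-like protein of the DLK family, differed most of the further ligands, with 40.2, 103 and 108 CPM in 6-OHDA STR against 1.09 to 1.52 CPM in 6-OHDA PFC, and 117, 64.1 and 97.2 CPM in control STR against 0.741 to 2.25 CPM in control PFC. Its log2 values were 5.96 (SE 0.47, adjusted p = 1.58e-06) in 6-OHDA mice and 6.22 (SE 0.48, adjusted p = 1.85e-06) in control mice. Its relative Dlk2 was lower in STR, at -1.19 (SE 0.19, adjusted p = 0.000264) in 6-OHDA mice and -0.57 (SE 0.18, adjusted p = 0.0225) in control mice. Of the 51 further genes tested, 26 were called in 6-OHDA mice, 12 higher and 14 lower, and 23 in control mice, 11 higher and 12 lower, again near the shares of all genes.

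**Figure D4:**
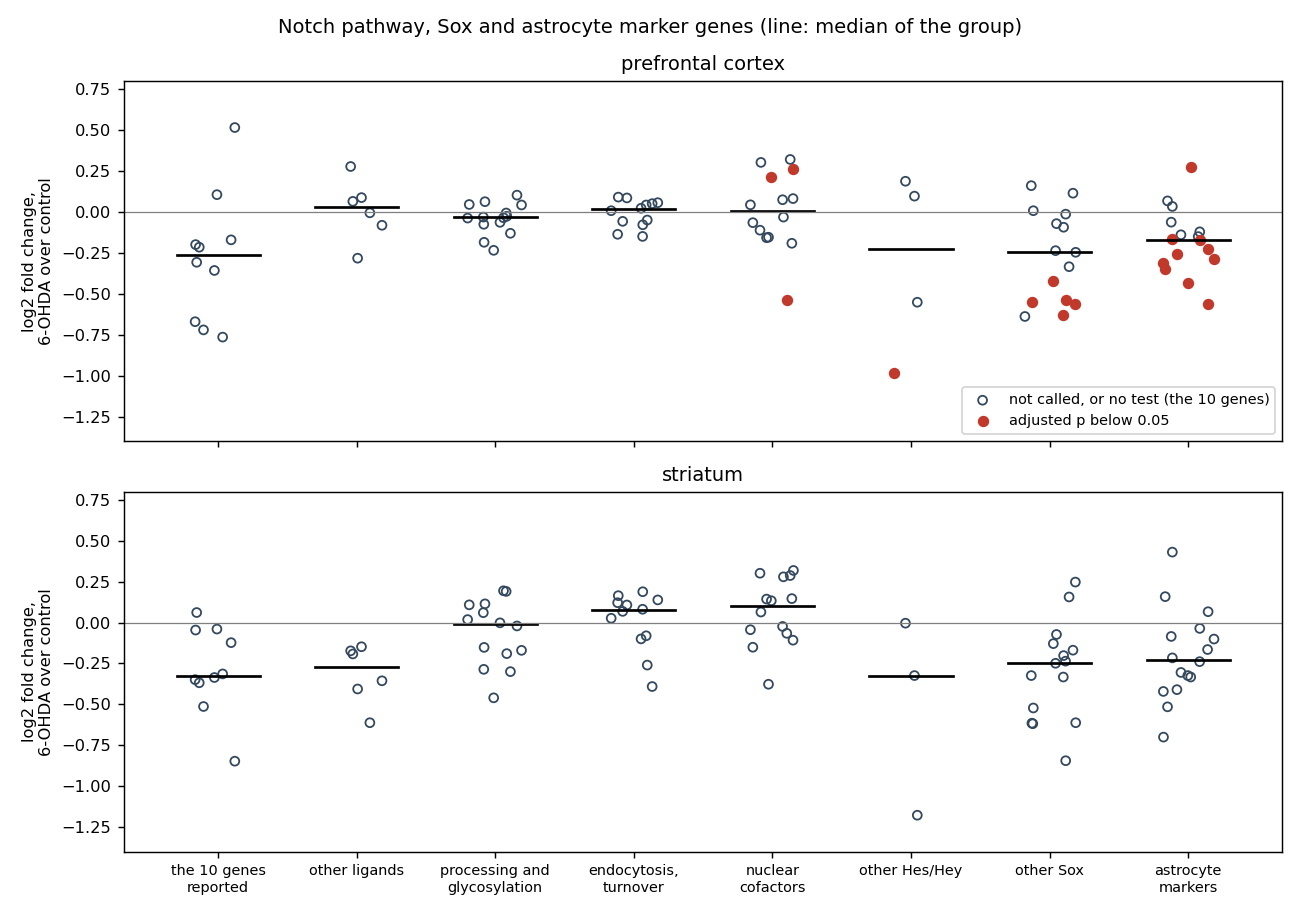
Log2 fold change of 6-OHDA over control (y axis) in PFC (top) and STR (bottom) for the 10 genes reported and for groups of further Notch, Sox and astrocyte marker genes; points are genes, filled where the adjusted p of edgeR was below 0.05 (the 10 genes carry no test in PFC and are open there), and lines are group medians. In PFC the other Sox genes and the astrocyte markers have medians of -0.25 and -0.17, and the ligand, processing, turnover and cofactor groups have medians near 0.

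Sox21 was set beside 17 other Sox genes, transcription factors that share its DNA-binding domain, of which 15 were tested. In PFC, 0 rose (3.45% of all genes did) and 5 fell (2.28% of all genes did), and the median log2 fold change was -0.25. The list was chosen with earlier results of these data known, which limits this comparison. Sox2, the SoxB gene most used as a stem cell and astrocyte marker, fell to 19.6, 20.9 and 21.7 CPM in 6-OHDA PFC, against 31.6, 31.1 and 32.8 CPM in control PFC (-0.63, SE 0.07, adjusted p = 0.000585 by edgeR's quasi-likelihood test). Sox9, an astrocyte factor that is also in the list of astrocyte markers, fell by 0.56 on the log2 scale (SE 0.1, adjusted p = 0.0063). Sox1, another SoxB1 factor of progenitors, fell by 0.55 (SE 0.11, adjusted p = 0.0126) and Sox4, a factor of immature neurons, by 0.42 (SE 0.08, adjusted p = 0.00939). Of these 5 calls, 2 to 3 were made without 6-OHDA PFC library 2 or 3, and 0 in the 12-library fit. In STR, 0 of 15 passed by edgeR and 5 did at an unadjusted p under 0.05 (17.3% of all genes); 6 had all 6-OHDA libraries below all controls (12.7% of all genes). Sox2 was 1 of these, with 25.2, 38.0 and 34.6 CPM in 6-OHDA STR and 54.4, 45.4 and 49.5 CPM in control STR (-0.61, SE 0.15, adjusted p = 0.181).

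Summed markers of astrocytes, endothelium and neural progenitors were lower in 6-OHDA PFC as well, without overlap. Those of oligodendrocyte precursors and oligodendrocytes (10 genes each) changed by -12.5% and -18.6% of the control mean there, and overlapped in both regions. Called lower in PFC were 2 of 12 endothelial, 1 of 9 tested progenitor, 2 of 10 precursor and 1 of 10 oligodendrocyte markers. These 4 lists held 0 genes called higher. Over all genes, 2.28% were called lower and 3.45% higher. All marker lists were chosen with earlier results of these data known, which limits these comparisons. Of 16 astrocyte markers in PFC, 9 fell and 1 rose, against 2.28% and 3.45% of all genes, and their summed level was 7462 to 7740 CPM in 6-OHDA PFC against 8294 to 8564 CPM in control PFC, a change of the mean of -9.75% without overlap. In STR 0 passed by edgeR's test and 9 at an unadjusted p under 0.05 (17.3% of all genes), and the sum was 6666 to 7537 CPM in 6-OHDA STR against 7501 to 7848 CPM in control STR, with overlap. The PFC count of 10 astrocyte calls became 5 without 6-OHDA PFC library 1, 4 without library 2, 4 without library 3 and 0 in the 12-library fit. The 12 endothelial markers summed to 303 to 318 CPM in 6-OHDA PFC against 335 to 373 CPM in control PFC, and to 237 to 275 CPM in 6-OHDA STR against 295 to 318 CPM in control STR, without overlap in either region. The 10 neural progenitor markers summed to 146 to 154 CPM in 6-OHDA PFC against 165 to 184 CPM in control PFC, without overlap, and to 151 to 202 CPM in 6-OHDA STR against 180 to 217 CPM in control STR. The summed mural cell markers (10 genes) overlapped in both regions. The 10 microglia markers summed to 459 to 579 CPM in 6-OHDA STR against 375 to 456 CPM in control STR, without overlap, and overlapped in PFC. The 10 markers of striatal projection neurons, whose sums are given above, were higher in 6-OHDA STR by 161% of the control mean. By edgeR's test 0 of them passed, and 9 did at an unadjusted p under 0.05 (17.3% of all genes). The 10 ependymal and choroid plexus markers summed to 56.4 to 78.8 CPM in 6-OHDA STR against 87.7 to 2135 CPM in control STR, with Kcnj13 at 0 in 6-OHDA STR. None of the other markers named was at 0 in all libraries of a group. In bulk tissue fewer cells of a type and less RNA per cell cannot be told apart, and the part of these markers in the results was not tested.

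**Figure D5:**
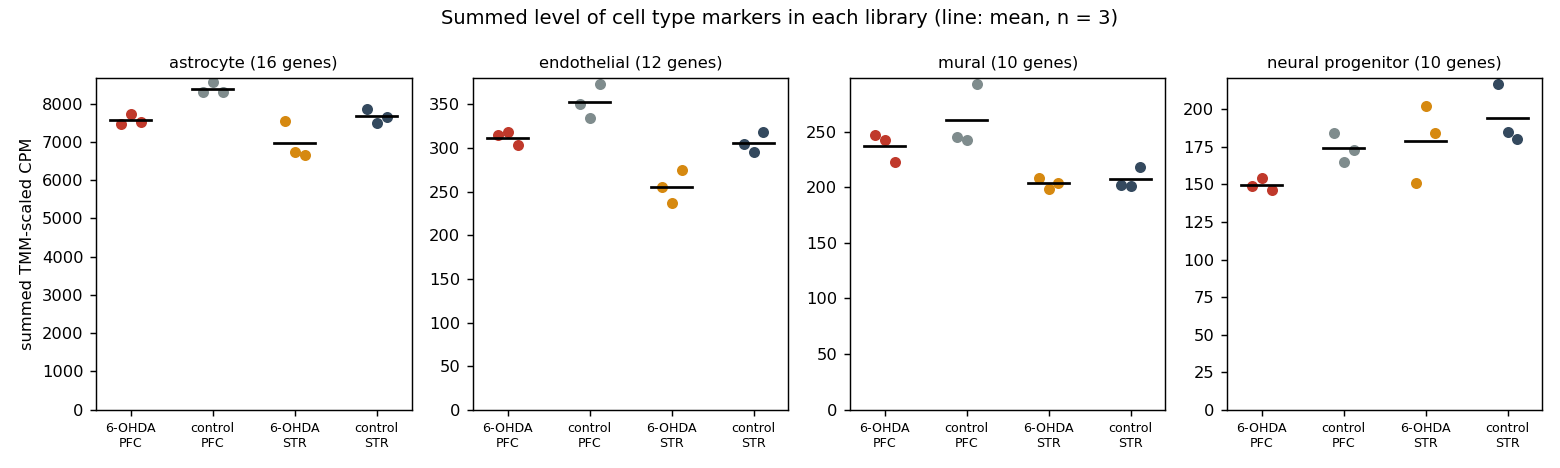
Summed TMM-scaled CPM (y axes, from 0) of astrocyte, endothelial, mural and neural progenitor markers in each library, with 6-OHDA left of control in each region and a line at the mean of 3. Astrocyte, endothelial and progenitor sums lie lower in 6-OHDA than in control PFC without overlap.

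Set against the astrocyte sum of the same library, Nrarp had 2.73, 2.48 and 2.64 CPM per 1000 CPM of astrocyte markers in 6-OHDA PFC and 3.87, 3.21 and 4.09 in control PFC, a log2 ratio of the means of -0.51 without overlap. Sox21 had 1.23, 1.03 and 0.983 in 6-OHDA PFC and 1.65, 1.58 and 1.56 in control PFC, a log2 ratio of -0.56. On this scale Sox21 also did not overlap in STR, at 1.23, 1.17 and 1.18 in 6-OHDA STR and 1.55, 1.63 and 1.47 in control STR (log2 ratio -0.37). Nrarp overlapped in STR (-0.2), as did Hes1 (-0.71). Hes1 remained above the controls in PFC (0.67), while Notch1 (-0.2) and Hey1 (-0.04) overlapped there.

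The genes most alike to Nrarp over the 12 libraries, ranked among 11599 genes above 5 CPM by the root mean square difference of log2 CPM after removing each region's mean, were Slc25a34 (0.075), Myorg (0.102), Adgrl4 (0.107), Btbd17 (0.11) and Arhgef19 (0.122). Those most alike to Sox21 were Htra1 (0.099), Smox (0.116), Sult1a1 (0.122), Myorg (0.123) and Slco1c1 (0.128), the last of which is also in the list of endothelial markers. For scale, Nrarp and Sox21 differed from each other by 0.147, Nrarp and Notch1 by 0.147, and Nrarp and Hes1 by 0.504, and the spread of Nrarp and Sox21 about their own region means was 0.278 and 0.32. The measure follows the group difference that the 12 libraries share as well as library noise.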

How the data were processed

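Prefrontal cortex and striatum of 6-OHDA and control mice were profiled by mRNA sequencing, with 3 libraries in each of 4 groups. The table that the authors deposited holds read counts for each gene symbol. The submitters' processing notes name STAR 2.7.1a, featureCounts and the build mm10. The sources used here do not give the annotation or strand setting, so genes that overlap others are uncertain. Of 21872 symbols, 1830 held only multiples of 11 and were left out (0.144% of counts, 0 of the 10 genes).

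Tests were run with edgeR 4.0.16 (quasi-likelihood) under R 4.3.3, with TMM factors and filterByExpr: each region alone for 6-OHDA against control (14018 genes in PFC, 14288 in STR), and all 12 libraries (14545 genes) for regions and for the difference. P-values are two-sided, adjusted by Benjamini and Hochberg over all genes, with calls under 0.05. Log2 CPM used a prior count of 2. Scripts were tested on simulated data. Correlations of deviations between same-numbered libraries lay between -0.11 and 0.09. With 3 libraries in a group, they cannot settle whether replicate numbers pair libraries.

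The 10 genes and all lists were chosen with earlier results of these data known. All 10 are named whatever their values. From each list, the rule takes up to 4 called genes with the smallest p per comparison, of which a selection is printed, and for Nrarp and Sox21 the 5 most alike genes. Genes given in STR after a call in PFC follow from that. Sequences are from RefSeq (GRCm38.p6) and positions from GENCODE M21. Alternatives used limma 3.58.1 and DESeq2 1.42.0, other filters and factors, a replicate block and libraries left out.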

Additional observations from a re-analysis of the deposited data

Results flagged for a closer look

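Hes1 was set apart by its opposite direction in the regions. Every 6-OHDA library lay above every control in PFC (8.9 to 10.6 against 6.17 to 7.9 CPM) and every 6-OHDA library lay below every control in STR (2.34 to 3.27 against 3.65 to 5.83 CPM). The difference of the log2 fold changes, STR minus PFC, was -1.36 (SE 0.27). It is given without a test, because the PFC values entered the choice of the gene. It lay between -1.56 and -1.25 when any 1 library was left out, and was -1.26 without 6-OHDA STR library 1 and control STR library 2, the striatal libraries that stood apart.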

How the results depend on the processing

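Of the values of the 10 genes in STR and between regions under other settings, 546 kept their direction and side of the threshold, 11 passed newly, 8 no longer passed and 15 changed sign. Sign changes were those of small log2 values. In the 6-OHDA effect in STR, leaving out 1 library moved Hes5 between -0.51 and 0.03 (highest without control library 1), Hey1 between -0.19 and 0.06 (highest without 6-OHDA library 2), Notch2 between -0.15 and 0.11 (above 0 at 0.02 without 6-OHDA library 3 and at 0.11 without control library 2) and Jag1 between -0.11 and 0.25 (below 0 at -0.11 without 6-OHDA library 1 and at -0.01 without control library 1). Without both 6-OHDA STR library 1 and control STR library 2, Notch2 was 0.03, Jag1 -0.06, Hes5 -0.6 and Hey1 -0.2, and Hey1 was 0.00211 with GC content and length offsets. Between regions, leaving out 1 library moved Hes5 in control mice between -0.3 and 0.48 (-0.06 and -0.17 without control PFC library 2 or 3, -0.3 without control STR library 1), and Sox21 in 6-OHDA mice between -0.05 and 0.12 (-0.04 without 6-OHDA PFC library 3, -0.05 without 6-OHDA STR library 1), with -0.05 without that set of 2 libraries. Fits with libraries left out rest on fewer samples; the cause of the change with offsets was not tested.

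The number of genes called in PFC, 803, was 30 in the 12-library fit and 195 to 1010 with 1 library left out. The 4 called in STR were 1040 in the 12-library fit, 529 with DESeq2, 13 with GC content and length offsets, 55 without the set of 2 libraries, and 0 with limma-voom (2405 at an unadjusted p under 0.05) or with genes in multiples of 11 kept (2441); leaving out 1 library gave 0 to 2. The 12 called for the difference were 116 with DESeq2, 0 with limma-voom and a spread per region (1674 unadjusted), 5 with genes in multiples of 11 kept, 101 without the set of 2, and 0 to 172 with 1 library left out. The causes were not tested. Counts between regions, 7037 in 6-OHDA and 6243 in control mice, stayed within 1.5 times.

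With the replicate number as a block, 634 genes were called in PFC, 0 in STR (2168 unadjusted) and 6 for the difference. Between regions, 6871 were called in 6-OHDA and 6099 in control mice. No label shows that the numbers pair libraries, so whether this fit follows a pairing in the design cannot be told. Depth limits Hes1 most, with 40 to 61 counts in 6-OHDA STR.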
